A study of Homo sapiens with 34 samples.

Results

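Alternative 3′ splice sites are acceptors that compete for one donor, so that the exon downstream begins at one of several positions. The sites described here were those at which neither choice was near complete in the control libraries. A site was taken when it had 20 or more reads in each of the 4 control libraries and when its mean usage in them, the percentage of the reads at its event that use it, lay from 5 to 95. Of 171733 alternative 3′ sites in the deposited splicing table, 68392 had that depth. Of these, 39189 had a control mean under 5% and 26008 over 95%, which left 3195 sites in 1600 events of 1394 genes, out of 721536 splicing events of all types. The sites were thus chosen by their usage in the controls, which is therefore given only as a description. Just outside the lower bound were sites of PSPH (4.9975%) and NTHL1 (4.995%), and just inside it sites of BRD1 (5.005%) and MAN2A2 (5.015%). At the upper bound BRD1 (94.995%) and MAN2A2 (94.985%) were just inside and PSPH (95.002%) and WASHC1 (95.002%) just outside.

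The libraries are stranded total RNA after removal of ribosomal RNA, from hTERT RPE-1, an immortalised human retinal pigment epithelium line. Each culture carried, from a lentivirus given at a multiplicity below 1, a hybrid guide RNA (hgRNA) that joins a Cas9 guide to a Cas12a guide. Selection with puromycin at 20 µg/ml for 72 h was followed by 4 days of growth. There were 34 libraries, 2 biological duplicates for each of 17 hgRNAs. The references were 2 hgRNAs whose guides both cut between genes (4 libraries). DDX5 (hgRNA 1 and 2), FNBP4 (hgRNA 1 and 2) and HNRNPD (1 hgRNA) carried deletions inside an intron. DDX17 (hgRNA 1 and 2), HDAC7 (hgRNA 1 and 2) and FNBP4 (hgRNA 3 and 4) carried deletions across a PTC exon, an exon that brings in a premature stop codon. The knockouts of DDX5, DDX17, FNBP4 and HDAC7 paired a Cas9 guide in an exon with a Cas12a guide between genes, 1 hgRNA each. The labels describe transduced and selected cultures, name no cloning step and give no editing rate. HDAC7 hgRNA 1 and 2 share a Cas9 guide, as do FNBP4 hgRNA 2 and 3, and the labels list one and the same Cas9 guide for the FNBP4 and HDAC7 knockouts.

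At a 3′ splice site the spliceosome reads a branch point, a run of pyrimidines and a final AG. SF1 binds the branch point, and the U2AF subunits bind the pyrimidine run and the AG before U2 snRNP replaces SF1. The AG that is joined to the donor is settled at the second chemical step, helped by factors such as SLU7 and PRPF18. Where a second AG lies close by, as in tandem acceptors of the NAGNAG type, either can be joined, and the mRNAs then differ by a few bases. DDX5 and DDX17 are paralogous DEAD-box RNA helicases with roles in splicing and transcription, and HNRNPD is an RNA-binding protein known for its part in mRNA decay. FNBP4 is a WW-domain protein, and HDAC7 is a class IIa histone deacetylase.

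Exactly 2 sites were taken in 1483 of the 1600 events (92.7%), 1 site in 62 and 3 or 4 sites in 55. In a pair, the upstream acceptor gives the longer exon, the usages of the acceptors are nearly mirror images, and both are counted from the same reads. In 579 pairs (39%) the acceptors were 3 bases apart, and the next most frequent distance was 4 bases, with 90 pairs. The sequences of the 4 tandem pairs with the most reads, and of the short pairs the later results turn on, are printed below as spliced mRNA of the longer form. They come from GENCODE v29 transcripts on GRCh38. Capitals mark the bases that are in the exon only when the upstream acceptor is used, preceded by 12 bases of the exon before and followed by 12 bases of the shorter exon.
CAP1, chr1:40060067-40060069, plus strand: gtccttcaaaagCAGgagcagctccat
NUCKS1, chr1:205719674-205719676, minus strand: cattccaggagaAAGattccggcagcg
DLG1, chr3:197076683-197076685, minus strand: agagataaagggCAGtcattcaatgac
CNBP, chr3:129171278-129171280, minus strand: ttcaggaggatgAAGcctgctataact
LLGL1, chr17:18234273-18234275, plus strand: ctggggaaccagCAGctggagagccta
FLII, chr17:18254179-18254182, minus strand: tgcacagctccgGCAGctcccagcgatg
AMPD2, chr1:109629796-109629799, plus strand: ccacctgcgcagGCAGaggggcttccac
DHX35, chr20:38988793-38988812, plus strand: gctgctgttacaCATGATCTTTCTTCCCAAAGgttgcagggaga
MOK, chr14:102232672-102232708, minus strand: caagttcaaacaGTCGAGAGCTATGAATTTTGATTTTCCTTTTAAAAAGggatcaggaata
In each printed pair the capitals end in AG, the AG of the downstream acceptor, as they did in 1339 of the 1344 pairs with a sequence (99.6%).

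The acceptors matched annotated GENCODE v29 acceptors on the same strand in 2702 of 3195 cases (84.6%) and on the other strand in none. Both acceptors were annotated in 1037 pairs, and 1344 pairs could be placed on a transcript. Of these, 1003 (74.6%) changed coding sequence alone, 187 (13.9%) the 5′ UTR and 93 (6.92%) a noncoding or decay transcript. Distance differed with the annotated place. In coding sequence 75.6% of 1003 pairs were a multiple of 3 bases apart, against 47.1% of 187 pairs in the 5′ UTR and 28% of 93 pairs in noncoding or decay transcripts. The order was the same after pairs 3 bases apart were set aside, with 55.1%, 23.3% and 17.3%. These shares are a description of the chosen sites and carry no test. A pair counted as noncoding or decay only where no annotated protein-coding transcript used its upstream acceptor. That annotation can itself depend on reading frame, so the shares and the classes are not independent.

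**Figure D1:**
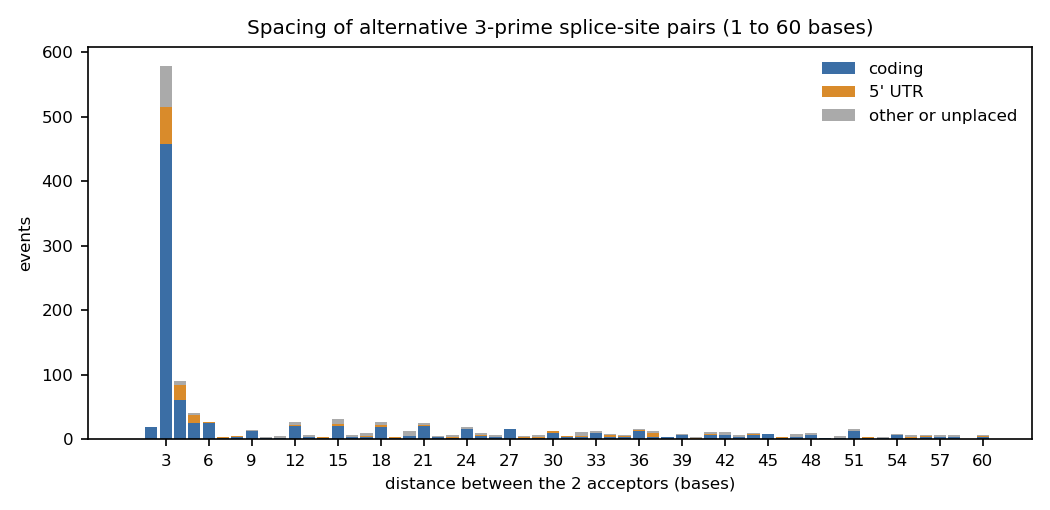
Number of pairs (y axis) at each distance between their acceptors in bases (x axis), coloured by where the added stretch lies; distances over 60 bases are not drawn. The column at 3 bases holds 579 of 1483 pairs, mostly coding, and the one at 4 bases holds 90.

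In the controls the upstream acceptor was the more used one in 932 of 1483 pairs (62.8%). That share was 69.1% at a distance of 3 bases and 81.1% at 4 bases. The less used site had a median share of 17.8% of reads at 3 bases, 13.3% at 4 to 12, 12.8% at 13 to 50, 11% at 51 to 200 and 8.17% over 200 bases. By assigned place, the upstream acceptor was the major one in 76% of coding pairs, 63.1% of 5′ UTR pairs and 19.4% of pairs in noncoding or decay transcripts. Place was read only from transcripts with an exon that begins at the upstream acceptor, and coding was taken first. The classes therefore depend on the annotated use of that acceptor, and these shares cannot show an effect of place itself. Among 529 pairs 3 bases apart with a sequence, the added triplet was CAG in 385 (72.8%), AAG in 81, TAG in 48, GAG in 14 and CAA in 1. Median control usage of the upstream acceptor was 71.7% for CAG, 78.8% for TAG, 86.8% for AAG and 90.8% for GAG. The same order was seen in the 30 libraries the choice of sites did not use. There, over the pairs with 20 reads in all 34 libraries, mean usage was 64.5% for CAG (244 pairs), 68.4% for TAG (24), 78.9% for AAG (57) and 91.6% for GAG (10). These are the same pairs in every library, so this order describes the pairs and was not tested, and single pairs overlapped widely: the quartiles of control usage were 46.6 and 87.2% for CAG and 73.1 and 92% for AAG.

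The most deeply read tandem acceptors show the choice where counting error is smallest. CAP1 encodes a cyclase-associated protein that binds actin. Its upstream acceptor was used at 87.9, 89.3, 87.1 and 87.9% in the controls, from 3922 to 4870 reads each, and its 17 group means ran from 87.5 to 89.3%. NUCKS1 encodes a chromatin-associated phosphoprotein. Its control values were 83.5, 84.5, 85.5 and 82.9%, and its group means ran from 82.8 to 84.7%. Neither pair had a group that stood apart. DLG1, a membrane scaffold protein, had control values of 75, 76.2, 76.1 and 76.1% and group means of 73.8 to 78.9%, the highest in DDX17 deletion hgRNA 1. CNBP, a zinc-finger protein that binds nucleic acids, used its downstream acceptor more. Its upstream usage was 29.4, 27.9, 29 and 30.4% in the controls, and its group means ran from 23.5 to 29.7%. All libraries of the FNBP4 PTC exon deletion lay below all controls, at 21.7 to 26.8%. So did those of the FNBP4 intron deletion (25.6 to 27.8%) and the DDX5 knockout (24.9 to 27.6%), and none was called. No difference among the 17 groups was called at any of the 4 pairs, with adjusted p between 0.986 and 1 (limma moderated F test). That test takes its spread in part from other events of similar depth. These adjusted p therefore do not measure how steady a pair was.

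**Figure D2:**
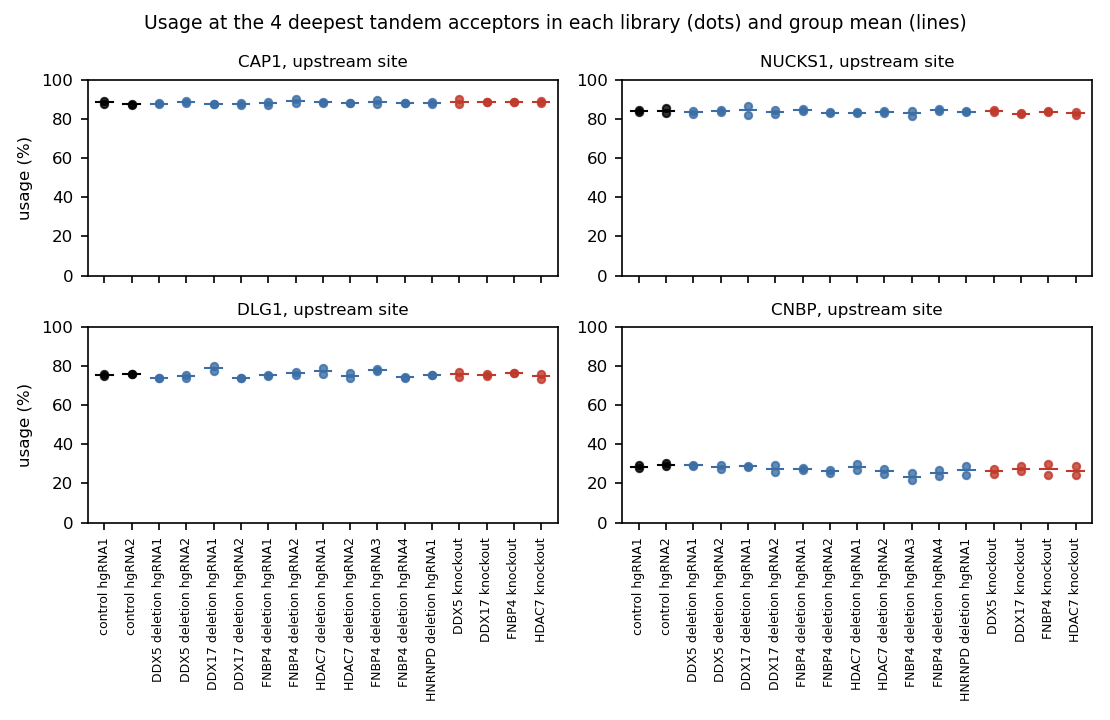
Upstream-site usage in percent (y axis) at the 4 deepest tandem acceptors in each of the 17 groups (x axis); dots are libraries, short lines group means, black for controls, blue for deletions and red for knockouts. CAP1 stays within 87.1 to 90.2% in all 34 libraries, and CNBP is the pair whose downstream site is the major one.

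Across pairs, the median spread between control libraries was near that of counting reads alone, though some pairs described at the end varied far more. An SD from 4 libraries tends to fall below the true one, and spread beyond counting was not tested. The SD over the 4 controls had a median of 4.07 percentage points over the 1483 pairs, and the binomial SD for the same reads and usage a median of 4.18, with a median ratio of 1.03. With 20 to 50 reads per control library (530 pairs) the median SD was 5.95 points, with 50 to 200 reads (758 pairs) 3.79, and with 200 or more 1.97. Duplicates differed by a median of 6.78 points in the first class and of 2.28 points in the last. The range of the 17 group means followed the same order, with a median of 16.5, 11.9 and 7.05 points among the pairs with 20 reads in all 34 libraries. The usage averaged over those 879 pairs was also steady, at 58.9 to 59.8% for the upstream site in the 34 libraries.

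**Figure D3:**
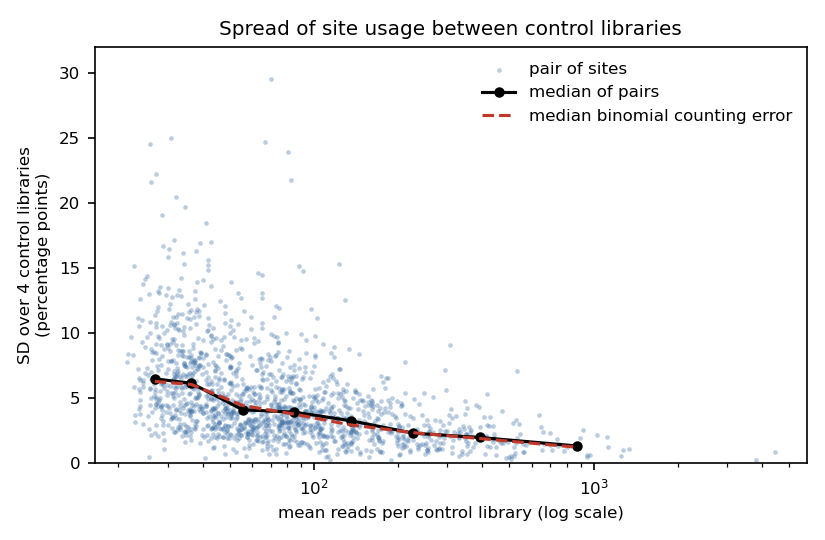
SD of upstream-site usage over the 4 control libraries in percentage points (y axis) against mean reads per control library (x axis, log scale), 1 dot per pair; black points are medians of pairs of similar depth and the dashed red line is the median binomial counting error. The black and red lines lie close together at all depths.

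Summed over the intron events, libraries held 12698449 to 20641128 corrected spliced reads, which is not their sequencing depth. The share of exon-intron reads, a sign of unspliced RNA, was 2.79 to 8.54% and stood apart in 2 libraries, at 8.54% in DDX17 deletion hgRNA 1 replicate 2 and 8.05% in HDAC7 deletion hgRNA 1 replicate 2, with the next at 6.43%. It was 2.79 to 3.58% in the 4 first replicates of the knockouts and 4.81 to 5.32% in the second. In the authors' deposited expression table (RPKM, reads scaled to transcript length and library size, 1 value per hgRNA; its log2 fold changes are not the plain ratio of these), RPE-1 cells had KRT18 at 251 RPKM in controls, VIM at 3199, MITF at 9.14 and OTX2 at 6.39, while the pigment epithelium markers RPE65 (0.05), RLBP1 (0.03) and TYR (0) were absent or nearly so. In the same table the mRNA of DDX5 was 73.4 RPKM in its knockout against 238 in controls (log2 fold change -1.85, FDR 9.67e-14) and that of DDX17 102 against 137 (-0.56, FDR 0.000681). FNBP4 (-0.25, FDR 0.747) and HDAC7 (-0.08, FDR 0.934) were not called lower in theirs, and FNBP4 was higher after deletion of its PTC exon with hgRNA 3 (1.61, FDR 1.09e-07) and hgRNA 4 (1.27, FDR 8.32e-05). None of the 1600 events lies in DDX5, DDX17, FNBP4, HDAC7 or HNRNPD.

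Changes in usage were tested for every splicing event with 20 reads in each library of a comparison. Called means a Benjamini-Hochberg adjusted p under 0.05 over all events tested and a difference of mean usage of 10 percentage points or more. In 10 comparisons an edit was set against the same 4 control libraries, so they share these values, and the controls are also the libraries that chose the sites. A log2 ratio below is the change in log2 of the reads for a site over the reads against it, each plus 1. Where a side has no read, this ratio follows the total reads alone. Most alternative 3′ sites with 20 reads in each control library had a control mean under 5% or over 95%. Shares of all events, called or at an unadjusted p under 0.05, are therefore not like for like with those of the chosen sites. The labels call duplicates biological but do not say whether they were separate transductions. The calls were few, but simulated shifts of 20 points were mostly missed at sites under 50 reads (values under processing below). Over the 10 comparisons they came to 4 events, 2 after deletion of the FNBP4 PTC exon and 1 each in the DDX5 and FNBP4 knockouts. None of these, nor of the events called between the FNBP4 deletions below, was called when only the libraries of its own comparison were fitted (adjusted p 0.25 to 0.39).

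No site was called with limma in 7 comparisons with the controls, and the shares of all events called there were also small. For the DDX5 deletion 0 of 2796 sites were called, where 0.0323% of all events were, and 188 (6.72%) had an unadjusted p under 0.05, against 12.2% of all events. Among events chosen by the same rule, 0.307% of alternative 5′ sites, 0.393% of exons and 0.509% of introns were called for this deletion. For the DDX17 deletion 0 of 2359 sites were called (0.000411% of all events, with 120 sites, or 5.09%, at an unadjusted p under 0.05 against 8.15% of all events). For the FNBP4 intron deletion the count was 0 of 2879 (0% of all events, unadjusted 125 sites, 4.34% against 6.34%). For the HDAC7 deletion it was 0 of 2645 (0% of all events, unadjusted 153 sites, 5.78% against 6.77%), and for the HNRNPD deletion 0 of 3004 (0.00209% of all events, unadjusted 187 sites, 6.23% against 8.23%). In the DDX17 knockout 0 of 2873 sites were called (0.00888% of all events, unadjusted 159 sites, 5.53% against 6.31%), and in the HDAC7 knockout 0 of 2681 (0.00668%, unadjusted 199 sites, 7.42% against 10.1%). By the same rule, 0% of alternative 5′ sites, 0.141% of exons and 0.0613% of introns were called in the DDX17 knockout. These shares were 0.277, 0.0672 and 0.0691% in the HDAC7 knockout and 0, 0.0151 and 0.0134% for the HNRNPD deletion. They were 0% for the DDX17, HDAC7 and FNBP4 intron deletions. The median change of the upstream site was between -0.0075 and 0.514 points in the 10 comparisons, and the upstream site was higher by 10 points or more in 11 to 56 pairs and lower by as much in 15 to 54, whether called or not. Pairs with such a change were 2.31 to 3.88% of those tested where 4 edited libraries were compared and 6.72 to 8.38% where 2 were.

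**Figure D4:**
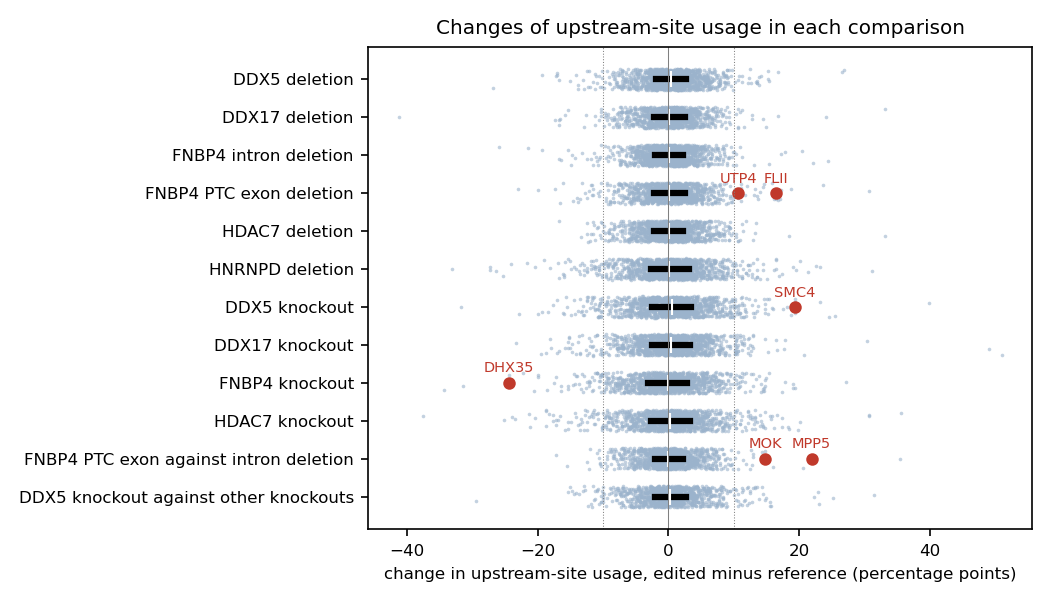
Change in usage of the upstream acceptor, edited minus reference, in percentage points (x axis) for each comparison (y axis); dots are pairs, black bars span the quartiles with the median in white, dotted lines mark 10 points and red dots are called events. Most pairs lie within 10 points of 0 in all 12 comparisons, and SMC4, shown by its upstream site, rises where its downstream site fell.

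After deletion of the FNBP4 PTC exon 4 of 2527 sites were called, in 2 events, where 0.0134% of all events were. That was 0.158% of the sites, beside 0.302% of alternative 5′ sites, 0.365% of exons and 0.0523% of introns chosen by the same rule. UTP4 encodes a small-subunit processome protein, and its acceptors lie 54 bases apart in coding sequence and UTR. The upstream acceptor was used at 86.8, 87.4, 82.6 and 88.9% in the controls, at 100 and 97.6% with hgRNA 3 and at 94.9 and 96% with hgRNA 4. All 4 edited libraries were above all controls. The means were 97.1 ± 2.23% and 86.4 ± 2.69% (SD, n = 4 each), a difference of 10.7 points (log2 ratio 1.81, SE 0.37, limma adjusted p = 0.0411). FNBP4 intron deletions were also above the controls, at 95.8, 97.3, 93.1 and 93.2%, a difference of 8.45 points that was not called (adjusted p = 0.402). So, without overlap or a call, were the HDAC7 knockout (9.48 points), the DDX17 knockout (7.18), the DDX17 deletion (6.77) and the DDX5 knockout (6.55). Reads at the event were 35 to 53 in the 8 libraries of the called comparison. The call was lost without any one of 7 libraries, all except FNBP4 deletion hgRNA 3 replicate 2, and adjusted p ran from 0.0132 to 0.195 over the 8 left out in turn.

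FLII encodes an actin-remodelling protein of the gelsolin family and holds the other event, the 4-base pair printed above, where the groups overlap. Its upstream acceptor was used at 78.1, 68.8, 78.6 and 60.9% in the controls. With hgRNA 3 it was used at 96 and 100% of 26 and 40 reads, and with hgRNA 4 at 77.6 and 78.5% of 61 and 63 reads. The change of 16.4 points (88 ± 11.7 against 71.6 ± 8.45%, SD, n = 4 each; log2 ratio 1.80, SE 0.37, limma adjusted p = 0.0397) rested on hgRNA 3: both hgRNA 4 libraries lay inside the range of the controls. In the HDAC7 knockout, at 80.7 and 82.9%, usage was also above all controls (10.2 points, adjusted p = 0.618). The 40 reads without the downstream acceptor in hgRNA 3 replicate 2 allow a share of up to 7.5%, which covers counting error only. FLII mRNA in the authors' deposited table had a log2 fold change of -0.43 with hgRNA 3 (FDR 0.00245) and -0.26 with hgRNA 4 (FDR 0.145). The call was lost without control hgRNA 1 replicate 2, either replicate of control hgRNA 2 or either of FNBP4 hgRNA 4, and adjusted p ran from 0.0357 to 0.198 over the 8 libraries left out.

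In the DDX5 knockout 2 of 2824 sites were called, both of SMC4, where 0.00324% of all events were. That was 0.0708% of the sites, beside 0% of alternative 5′ sites, 0.0484% of exons and 0% of introns chosen by the same rule. SMC4 encodes a core ATPase of condensin, the complex that compacts mitotic chromosomes, and the acceptors used lie 222 bases apart in its 5′ UTR. The downstream acceptor was used at 89, 90.8, 85.8 and 86.5% in the controls and at 67.7 and 69.7% in the knockout, from at least 96 reads each. The groups did not overlap. Usage fell by 19.3 points, from 88 ± 2.31% (SD, n = 4) to 68.7 ± 1.44% (SD, n = 2; log2 ratio -1.73, SE 0.29, limma adjusted p = 0.0415). Against the same controls the differences were -12 points in the DDX17 knockout (adjusted p = 0.244), -12.2 in the HDAC7 knockout (0.0937) and -5.79 in the FNBP4 knockout (0.407). They were -5.76 points for the DDX5 deletion (0.232), -8.73 for the FNBP4 intron deletion (0.398), -7.28 for the HDAC7 deletion (0.579), -3.73 for the DDX17 deletion (0.635), -0.91 for the HNRNPD deletion (0.982) and -0.4 for the FNBP4 PTC exon deletion (0.959). None of these was called. Set against the 6 libraries of the other knockouts, which do not share those controls, the DDX5 knockout differed by -9.32 points, at a mean of 68.7 against 78 ± 3.34% (SD, n = 6), with an unadjusted p of 0.0214 and an adjusted p of 1 from limma. The call was lost without any one of its 6 libraries (adjusted p 0.0573 to 0.153), with a minimum of 10 reads (0.0522) and with the replicate number as a block (0.0505). SMC4 mRNA was 35 RPKM in the knockout and 39.7 in controls in the authors' deposited table (log2 fold change -0.57, FDR 0.103). The exon-intron share was 3.04 and 5.07% in the 2 knockout libraries and 5.13 to 6.38% in the controls, and its part in the result was not tested.

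In the libraries labelled FNBP4 knockout 2 of 2714 sites were called, both of DHX35, where 0.0128% of all events were. That was 0.0737% of the sites, beside 0% of alternative 5′ sites, 0.13% of exons and 0.12% of introns chosen by the same rule. DHX35 encodes a DEAH-box helicase found in the spliceosome, and the 20-base stretch printed above lies in a noncoding or decay transcript. Its upstream acceptor was used at 39.1, 21.2, 25.9 and 17.1% in the controls, of 23 to 41 reads, and at 0 and 2.94% of 27 and 34 reads in the knockout. The groups did not overlap, and the 27 reads allow a share of up to 11.1%. Usage fell by 24.4 points, from 25.8 ± 9.57% (SD, n = 4) to 1.47 ± 2.08% (SD, n = 2; log2 ratio -2.98, SE 0.55, limma adjusted p = 0.0404). It was 4.35 and 18.8% in the HDAC7 knockout, whose labels list the same Cas9 guide, and 0 and 21.7% in the DDX17 knockout, of 15 and 23 reads. Low values were not confined to knockouts: usage was 4.55, 19.4, 15.6 and 5.26% in the DDX5 deletion, 5.24, 21, 16.7 and 10.3% in the HDAC7 deletion, 13.8 and 4.76% with FNBP4 deletion hgRNA 2 and 8.7 and 18.2% in the DDX5 knockout. The call was lost without any one of 5 libraries, all except FNBP4 knockout replicate 2 (adjusted p 0.0445 to 0.234 over the 6 left out in turn), with a minimum of 10 reads (0.0788) and with the replicate number as a block (0.0508). The exon-intron share was 2.79 and 4.81% in these libraries, below all controls, and its part in the result was not tested.

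NCK2, an adaptor protein that links receptors to actin, passed the adjusted p alone in the DDX17 knockout, at a pair 3 bases apart in its 5′ UTR. Its upstream acceptor was used at 90.8, 93.3, 90.1 and 91.7% in the controls and at 99.3 and 98.7% in the knockout. The difference of 7.49 points (log2 ratio 2.54, SE 0.44, limma adjusted p = 0.0389) was short of the 10 points required. The DDX5 deletion, at 97.6, 97.2, 98.1 and 96.7%, was also above all controls (5.92 points, adjusted p = 0.0566). The same held, without a call, for the DDX17 deletion (4.89 points), the HDAC7 knockout (4.77), the FNBP4 knockout (4.17), the FNBP4 intron deletion (3.01) and the HNRNPD deletion (2.94). The DDX5 knockout differed by -2.49 points and overlapped the controls.

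**Figure D5:**
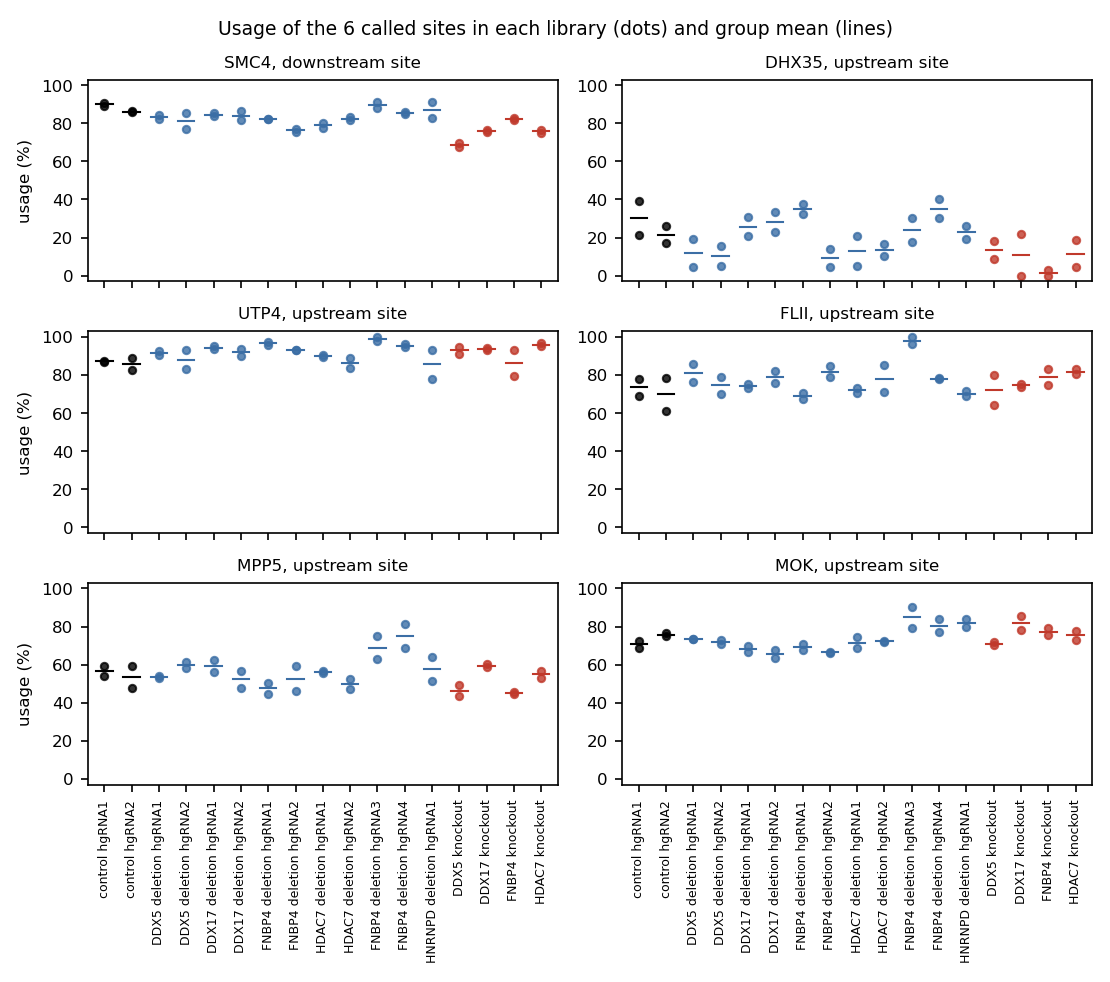
Usage in percent (y axis) of the 6 sites called between edits and their references, in each of the 17 groups (x axis); dots are libraries, short lines group means, black for controls, blue for deletions and red for knockouts. The DDX5 knockout is lowest for SMC4, FLII is near 100% with FNBP4 hgRNA 3 alone, and MPP5 is highest with FNBP4 hgRNA 3 and 4.

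The 2 other comparisons do not compare with the controls, although the control libraries, like all 34, enter the estimate of the spread. The deletion of the FNBP4 PTC exon (hgRNA 3 and 4) was compared with the deletion inside the FNBP4 intron (hgRNA 1 and 2), and 4 of 2451 sites in 2 events were called, where 0.0314% of all events were. That was 0.163% of the sites, beside 0.309% of alternative 5′ sites, 0.972% of exons and 0.237% of introns chosen by the same rule. MPP5 encodes a scaffold protein of the Crumbs polarity complex, and its acceptors lie 232 bases apart in coding sequence and UTR. The upstream acceptor was used at 63, 74.8, 68.5 and 81.4% after the PTC exon deletion, at 44.5, 50.5, 59.1 and 46% after the intron deletion and at 59.4, 54.1, 59.1 and 47.7% in the controls. The edited groups did not overlap. The means were 71.9 ± 7.94% and 50 ± 6.55% (SD, n = 4 each), a difference of 21.9 points (log2 ratio 1.37, SE 0.27, limma adjusted p = 0.0188). Against the controls the PTC exon deletion was 16.9 points higher, which was not called (adjusted p = 0.0904). The call was lost without FNBP4 hgRNA 1 replicate 1, hgRNA 2 replicate 2 or hgRNA 4 replicate 2, with adjusted p from 0.0192 to 0.111 over the 8 libraries left out.

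MOK encodes a MAP-kinase-like protein kinase, and its 37 added bases, printed above, are coding. The upstream acceptor was used at 79.5, 90.2, 76.9 and 84% after the PTC exon deletion and at 67.5, 71, 66.7 and 66.3% after the intron deletion. Its values in the controls were 68.8, 72.5, 76.7 and 74.8%, with a mean between those of the edits: the PTC exon deletion was 9.46 points above their mean (adjusted p = 0.212) and the intron deletion differed by -5.34 points (0.9). The HNRNPD deletion (mean 82%) and the DDX17 knockout (81.8%) were about as high as the PTC exon deletion. The FNBP4 deletions did not overlap, with means of 82.7 ± 5.84% and 67.9 ± 2.14% (SD, n = 4 each), a difference of 14.8 points (log2 ratio 1.07, SE 0.24, limma adjusted p = 0.0383). MOK mRNA moved in the same libraries: in the authors' deposited table it was 16.5 RPKM with hgRNA 3 and with hgRNA 4 against 40.7 in controls (log2 fold change -1.19, FDR 2.46e-08, and -1.18, FDR 3.16e-08). With hgRNA 1 and 2 it was 53.8 and 53.4 RPKM, which was not called (FDR 0.453 and 0.583). The part of that change in the site usage was not tested. The call was lost without any one of 7 libraries, all except FNBP4 hgRNA 3 replicate 1 (adjusted p 0.0122 to 0.165 over the 8 left out in turn), and at a pseudocount of 0.5 (0.0501). FAM208A, a subunit of the HUSH silencing complex, passed the adjusted p alone: its upstream acceptor, 277 bases from the other, was used at 90.9, 86.7, 90.3 and 89.1% against 74.8, 81.8, 83.6 and 78.6%, a difference of 9.56 points (limma adjusted p = 0.0431).

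The DDX5 knockout was compared with the 6 libraries of the other knockouts, and 0 of 2428 sites were called with limma (0.00232% of all events). Chosen by the same rule, 0% of alternative 5′ sites, 0.0721% of exons and 0% of introns were called. At an unadjusted p under 0.05 there were 150 sites, 6.18% against 3.85% of all events. Among the sites named here FAM208A had the widest difference, at 91.4 ± 0.622% (SD, n = 2) against 81 ± 5.96% (SD, n = 6), a difference of 10.4 points with an adjusted p of 0.368. The difference with the smallest p among them was that of NCK2, at -7.97 points with an adjusted p of 0.289.

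Over all 17 groups at once, 3 of the 1861 sites with 20 reads in all 34 libraries were called, in 2 events (limma moderated F test, range of group means of 10 points or more), where 0.0594% of all events were. By the same rule and test, 11 of 1517 alternative 5′ sites (0.725%), 72 of 4467 exons (1.61%) and 16 of 3886 introns (0.412%) were called, against 0.161% of the alternative 3′ sites. BRD8 encodes a bromodomain protein of the NuA4 histone acetyltransferase complex, and the bases between its acceptors are coding. The upstream acceptor was used at 100% in both libraries of DDX17 deletion hgRNA 2 (39 and 51 reads, which allow up to 7.69 and 5.88% for the rest) and at 86 and 80.9% with hgRNA 1, so that the hgRNAs of one gene held the extremes of the 17 means, 100 and 83.5% (adjusted p = 0.0475). LLGL1 encodes a polarity protein. Its upstream acceptor was used at 92.8, 92.7, 88.3 and 91.4% in the controls, at 100 and 98.7% with DDX17 deletion hgRNA 2 and at 87.7 and 83.6% with FNBP4 deletion hgRNA 1, the highest and lowest of the means at 99.3 and 85.6% (adjusted p = 0.0498). Both calls were narrow. Leaving out 1 library at a time ended that of BRD8 in 27 of 34 cases (adjusted p up to 0.159, without DDX17 deletion hgRNA 2 replicate 2) and that of LLGL1 in 29 (up to 0.114, without replicate 1 of that hgRNA). Both calls were also lost with a pseudocount of 0.5 (adjusted p 0.0504 for BRD8 and 0.12 for LLGL1) and with no depth trend (0.0507 and 0.0504). The replicate block ended that of LLGL1 (0.0666).

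The next smallest p-values of that test belonged to sites that it did not call. Among them were SMC4 (range 21.2 points, limma adjusted p = 0.0568) and FLII (29 points, 0.0864), both called against the controls above. EEF1D, a subunit of translation elongation factor 1, has acceptors 3 bases apart in coding sequence. Its group means ran from 29% in the HNRNPD deletion to 86.5% with DDX5 deletion hgRNA 1, a range of 57.4 points (limma adjusted p = 0.064). The 4 libraries of the DDX5 deletion, at 95.3, 77.7, 82.1 and 63.7%, were all above the controls at 46.9, 53.3, 50.9 and 61.5%, and those of the HNRNPD deletion, at 21.9 and 36.2%, were below them. The differences of 26.5 points (adjusted p = 0.0571) and -24.1 points (0.477) were not called, and reads at the event were 26 to 76. The downstream acceptor of INPPL1, an inositol polyphosphate phosphatase, ranged from 71.4% with FNBP4 deletion hgRNA 3 to 93.4% in the FNBP4 knockout (adjusted p = 0.147). RNF216, a ubiquitin ligase, ranged from 75.2 to 96.7% (0.132) and HERC2, another ubiquitin ligase, from 87.3 to 99% (0.0944). AMPD2, an AMP deaminase, used only its upstream acceptor in 31 of 34 libraries. The downstream one appeared in both HNRNPD deletion libraries, where the upstream usage was 78.6 and 83%, and in control hgRNA 2 replicate 1 at 77.6%. The remaining libraries had no read of it, which allows a share of up to 2.08 to 5.66%. The 17 means differed by 19.2 points (adjusted p = 0.0952).

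The choice of acceptor was also described in the genes of splicing itself. Of 27 genes of 3′ splice site recognition, 4 held 5 of the events. SF1 had acceptors 5 bases apart with a minor share of 8.39% in controls and a range of 7.26 points over the 17 group means. The pairs of SF3B2, 3 bases apart, had minor shares of 10.7 and 6.2% and ranges of 4.89 and 4.24 points. CHERP (33 bases, minor share 8.29%, range 11.1 points) and U2SURP (4 bases, 29%, 37.2 points) had the others. U2SURP did not have 20 reads in all 34 libraries. Of 58 splicing regulators, 15 held 20 events, among them RBFOX2 (12 bases, minor share 44.8%, range 10.6 points) and RSRC2 (3 bases, 46.9%, 5.75 points), where the acceptors were used nearly equally. The widest ranges among the regulators, 28.5 points at a pair of CELF1, 28.3 at SRSF11 and 26.9 at PNISR, were also at pairs short of 20 reads in some library. None of the 10 second-step factors held one, and 0 of these 25 events were called in any comparison with limma.

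The mRNA levels of the same lists were read from the authors' deposited table at an FDR under 0.05. With FNBP4 deletion hgRNA 3, where 14.4% of 22605 genes were called, 7 of 27 recognition genes were: RBM39 (log2 fold change 0.60) and SF3B1 (0.51) were higher and U2AF2 (-0.43), PHF5A (-0.49), SF3B5, CHERP and SNRPA1 lower. In the other 14 edits 0 or 1 of the 27 were called, where 0.226 to 8.28% of all genes were. The share of all genes called was 8.28 and 5.5% for the DDX5 deletions (hgRNA 1 and 2), 1.54 and 1.55% for those of DDX17, 1.11 and 0.226% for those of HDAC7 and 5.09% for that of HNRNPD. It was 1.17% with FNBP4 deletion hgRNA 1, 0.73% with hgRNA 2 and 7.56% with hgRNA 4. In the knockouts it was 6.19% for DDX5, 1.49% for DDX17, 6.83% for FNBP4 and 4.27% for HDAC7. U2AF1 was the one in both DDX5 deletions, at 0.58 with hgRNA 1 (FDR 0.0214) and 0.63 with hgRNA 2 (FDR 0.0151). Among second-step factors PRPF18 was higher with FNBP4 deletion hgRNA 3 (0.33, FDR 0.0427), and SDE2 in the DDX5 knockout (0.55, FDR 0.00369) and the HDAC7 knockout (0.47, FDR 0.0276). Of 58 regulators 10 were higher and 1, PTBP1 (-0.60), lower with FNBP4 deletion hgRNA 3, beside the 14.4% of all genes called there, and 0 to 4 were called in each of the other edits.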

How the data were processed

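The splicing table was deposited by the authors as percent usage (PSI) for each event and library, with a quality field that holds the corrected inclusion and exclusion read counts as text. Its layout is that of vast-tools, and for its aligner and its build a name is not given in the sources used here. Percent recomputed from the deposited reads differed from the deposited percent by at most 0.5 points for 100% of 3359801 values. The expression table, deposited by the authors with 1 RPKM per hgRNA group, log2 fold changes, p-values and FDR against the controls, names Salmon 1.10 and edgeR per the submitters' processing notes, and its values were copied. The splicing table has 2 other library columns that were not used.

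For every event of every type, log2((inclusion + 1) / (exclusion + 1)) was fitted with limma 3.58.1 (R 4.3.3), as 17 group means over 34 libraries, with empirical Bayes variances that follow mean log2 reads. An event entered a comparison with 20 reads in each of its libraries. Benjamini-Hochberg adjustment ran over all such events. The F test needed 20 reads in all 34 libraries. Percentages of usage carry SD over libraries, and a limit for a site with no read is 3 reads of the total, which, like the binomial SD, covers counting error only. The reads are not counted by molecule. The script was tested on simulated reads at the depths of these libraries. Chosen sites were shifted away from the nearer end of the scale, and all other events were left unchanged. Every event was given the same spread beyond counting. Sites that vary more, and shifts toward the nearer end, were not simulated, so the rates hold for these settings only. For the FNBP4 PTC exon deletion, shifts of 20 points were called at 15.4% of sites under 50 reads and 51.4% of the rest. For the DDX5 knockout these were 10.7 and 26.4%. Shifts of 35 points were called at 85.2 and 98.6% for the former and at 34.6 and 74.3% for the latter. A count of 0 called sites therefore does not show that no site changed. Tables and figures were made with Python 3.11.15, numpy 2.4.6, pandas 2.3.3 and matplotlib 3.10.9.

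Acceptors were matched by position to GENCODE v29 on GRCh38, and sequences were taken from its transcripts. Over 136 pairs of groups, same-numbered libraries deviated with a median correlation of -0.00195 (16 pairs over 0.1), so the numbers were not taken to pair the groups at large. Among the 4 knockouts all 6 pairs of groups were over 0.1 (0.216 to 0.297), and the exon-intron share also differed by number. There the numbers pair the libraries, but the replicate block was a single term shared by all groups and was not fitted for the knockouts alone. It therefore cannot show what that pairing does. With the block 0 sites were called between the DDX5 and the other knockouts, as without it. Groups came from the labels.

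The named sites follow a rule. It takes called events with the largest difference whose edited libraries all lie beyond the references, in the same direction for each hgRNA, up to 6 per comparison. It adds up to 12 events with the smallest F-test p, called events in the listed genes and in the edited genes, the 4 deepest pairs 3 bases apart, and the sites nearest the bounds of 5 and 95%. The members and the gene lists were chosen with earlier results of these data known. Alternatives were a pseudocount of 0.5, a read minimum of 10, no depth trend, only the libraries compared, a replicate block and leaving out each library. Leaving out together the 3 libraries with the highest exon-intron share was chosen after seeing the data.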

Additional observations from a re-analysis of the deposited data

Results flagged for a closer look

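In 132 groups of 4 to 10 libraries the highest and lowest library were compared with the rest by Dixon's ratio, which chance passes in about 1 in 20 groups. That rate does not hold where all other libraries are at 100%, as at AMPD2 and LINC00094 below. Any lower value then passes. In the controls, AMPD2 upstream usage of 77.6% in control hgRNA 2 replicate 1 lay apart from 100% in the other 3, and DLG1 upstream usage of 75% in control hgRNA 1 replicate 1 lay apart from 76.1 to 76.2%. LINC00094 has acceptors 3 bases apart, placed in the 5′ UTR of a transcript annotated as protein-coding, and a median of 43 reads per library. It had a library below 100% where the others of the edit were at 100%: 93.6% in DDX5 deletion hgRNA 2 replicate 1, 97.9% in DDX17 deletion hgRNA 2 replicate 2 and 97.5% in FNBP4 deletion hgRNA 1 replicate 1. EEF1D upstream usage was 80.6% in FNBP4 deletion hgRNA 1 replicate 2, against 49.5 to 54% in the other libraries of the FNBP4 intron deletion. The exon-intron share of 8.54% in DDX17 deletion hgRNA 1 replicate 2 and of 8.05% in HDAC7 deletion hgRNA 1 replicate 2 lay apart from the other libraries of those edits.

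Effects of the FNBP4 deletions differed by test at 2 events. Between the PTC exon and the intron deletion, usage of the upstream acceptor differed by 21.9 points at MPP5 and by 14.8 points at MOK, with the limma values given above.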

How the results depend on the processing

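No result changed direction under any alternative run, and the values changed mainly by which sites passed the threshold. Over all 17 groups the 3 called sites became 0 with a pseudocount of 0.5, 5 with a minimum of 10 reads, 0 with no depth trend and 1, of BRD8, with the replicate block. The 4 sites called after the FNBP4 PTC exon deletion became 0 when only the libraries compared were fitted. The 2 sites of the DDX5 knockout and the 2 of the FNBP4 knockout each became 0 with a minimum of 10 reads, 0 with only their own libraries and 0 with the replicate block. The 4 sites called between the FNBP4 PTC exon and intron deletions became 2 with a pseudocount of 0.5 and 0 with only their own libraries. That fit, with its own libraries only, called 0 events of any type in these 4 comparisons, and was not run for the F test. The replicate block changed no other count past 1.5 times. Leaving out 1 library at a time gave 0 to 11 sites for the 17 groups, 0 to 4 for the DDX5 deletion, 0 to 2 for the DDX17, HDAC7, HNRNPD and FNBP4 intron deletions, 0 to 19 for the FNBP4 PTC exon deletion (19 without FNBP4 hgRNA 3 replicate 2), 0 to 4 for the DDX5 knockout, 0 to 2 for the DDX17 and HDAC7 knockouts, 0 to 10 for the FNBP4 knockout, 0 to 14 for the FNBP4 PTC exon against the intron deletion and 0 to 2 for the DDX5 against the other knockouts. Where 1 of 2 edited libraries was left out, the other was assumed to vary like the remaining groups. Without the 3 libraries of highest exon-intron share, chosen after seeing the data, 2 sites were called over the groups left, BRD8 was no longer called (adjusted p = 0.133), and the other 12 counts were unchanged. Where the cause of a lost call is not the number of libraries, the cause was not tested. Depth limits precision: with 20 to 50 reads the median SD over controls was 5.95 points, beside the 10 points a call requires.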

Other observations

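A few acceptor pairs varied far more between libraries than the rest, and they were chosen here after their values were seen. The 17 group means spanned 30 points or more in 16 of 879 pairs (1.82%). All of the 4 widest lie 2 to 4 bases apart in coding sequence, but so do many of the 879. Pairs 3 bases apart made up 370 of them, and 4 of these spanned 30 points or more. This held for 3 of 8 pairs 2 bases apart, 2 of 46 pairs 4 bases apart and 12 of 624 coding pairs. A link with distance or place was not tested. EIF2D, which encodes a translation initiation factor, had upstream usage from 29.5 to 100% over the libraries, a range of group means of 65.4 points and duplicates that differed by up to 58.3 points (limma F test, adjusted p = 0.373). MEN1, the gene of the tumour suppressor menin, ran from 14.6 to 100%, with a range of group means of 55.7 points (adjusted p = 0.601). EEF1D, described above, is the other of the 4.

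DDX3X, an X-linked DEAD-box helicase gene with acceptors 4 bases apart, fell into separate sets of libraries that cut across duplicates, which differed by up to 77.9 points (range of group means 59.8 points, adjusted p = 0.923). In 24 libraries the upstream acceptor was used at 19.2 to 39.8% of 77 to 142 reads. In 9 libraries it was used at 99.1 to 100% of 24 to 53 reads, and 1 library lay between, at 63% of 54 reads. Libraries near 100% therefore had fewer reads at the event than any library under 40%, and the part of read number in these values was not tested.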
